A study of Homo sapiens with 20 samples.

Results

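The death receptor pathway was described here by 9 genes, taken by their symbols from an mRNA-seq table of 36076 genes. They encode the death receptors FAS, TNFRSF1A, TNFRSF10A (TRAIL-R1) and TNFRSF10B (TRAIL-R2), the decoy receptors TNFRSF10C and TNFRSF10D, the adaptor FADD, the protease CASP8 and its inhibitor CFLAR (c-FLIP). Each gene was found once, and 9 of 9 passed the filter on low values, a mean of at least 0.1 FPKM (fragments per kilobase of gene, scaled to library size). The samples were 6 lines of human lung cancer, namely A549, H1299, H1792, PC9, CL1-0 and CL1-5, with no genetic change made to them in this series. Mock cells received PBS. DAC cells received decitabine, a cytosine analog that traps and depletes DNA methyltransferases, at 100 nM for 72 hours, and were then kept in drug-free medium for 3 days. There was 1 mRNA-seq library per line and treatment, so that 12 libraries were available and cell lines were the only replicates. Omni-ATAC-seq, which maps open chromatin by transposase insertion, was done in 4 of the lines with 1 library per line and treatment. CL1-0 and CL1-5 are related lines. The study set out to learn how DAC changes the molecules by which immune cells recognise and kill lung cancer cells, and death receptors are among them.

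Death receptors relay the signal of ligands made by killer lymphocytes into the cell. FAS binds FAS ligand, the TRAIL receptors bind TRAIL, and TNFRSF1A binds TNF. FAS and the TRAIL receptors then gather FADD, which brings CASP8 molecules together so that they cleave and activate each other. CFLAR resembles CASP8, joins the same complex and limits this step. TNFRSF10C and TNFRSF10D bind TRAIL but lack a working death domain, which is why they are called decoys. TNFRSF1A mainly signals through TRADD and NF-kB, and reaches CASP8 in a later complex.

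In the GRCh37 build, FAS lies on chromosome 10 (chr10:90750414-90775542), TNFRSF1A on chromosome 12 (chr12:6437923-6451280, minus strand) and FADD on chromosome 11 (chr11:70049402-70053496). CASP8 (chr2:202098166-202226559) and CFLAR (chr2:201980877-202041410) lie close together on chromosome 2. FAS overlaps ACTA2 on the opposite strand, and TNFRSF10A, TNFRSF10B, FADD, CASP8 and CFLAR also overlap antisense genes. The libraries kept the strand, but the sources do not say whether reads were counted by strand, so reads of these partners cannot be told apart. Promoter windows of 250 bases upstream of the RefSeq starts (GRCh38.p14 table) were matched to GRCh37 for these 5 genes. CpG dinucleotides are the sites that DNA methyltransferases modify, and their number differed between these promoters. The window of FADD held 32, the 90.5th percentile of 35116 RefSeq windows, whose median was 11. The window of TNFRSF1A held 4 (percentile 29.3) and that of the upstream start of CASP8 held 6 (percentile 38.1). The parts of these windows outside any exon are shown because open chromatin was called over them in most lists and because they span this range of CpG content. CpG dinucleotides are in capitals and each sequence runs 5′ to 3′ on the strand of its gene.
FADD, chr11:70049152-70049401, plus strand: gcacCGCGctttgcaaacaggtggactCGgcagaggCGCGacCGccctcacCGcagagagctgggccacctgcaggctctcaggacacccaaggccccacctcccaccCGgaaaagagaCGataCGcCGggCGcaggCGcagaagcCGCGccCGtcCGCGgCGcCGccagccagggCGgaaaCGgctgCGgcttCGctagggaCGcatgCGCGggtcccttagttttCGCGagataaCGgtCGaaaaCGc
TNFRSF1A, chr12:6451281-6451492, minus strand: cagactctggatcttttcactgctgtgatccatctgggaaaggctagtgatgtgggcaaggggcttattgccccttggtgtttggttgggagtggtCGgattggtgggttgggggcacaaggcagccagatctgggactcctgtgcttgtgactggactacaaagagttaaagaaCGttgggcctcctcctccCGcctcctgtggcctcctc
CASP8, chr2:202097936-202098165, plus strand: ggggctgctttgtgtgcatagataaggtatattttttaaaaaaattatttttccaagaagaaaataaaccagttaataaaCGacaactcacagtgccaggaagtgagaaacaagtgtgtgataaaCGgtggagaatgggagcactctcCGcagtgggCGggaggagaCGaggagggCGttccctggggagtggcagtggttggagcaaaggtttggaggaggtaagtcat

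The printed stretch of FADD held 12.8 CpG per 100 bases, against 2.61 for CASP8 and 1.42 for TNFRSF1A. Searched on both strands, the GC box letters GGGCGG were found 2 times in the FADD window and 1 time in the CASP8 window, and 42.6% of all RefSeq windows held them at least once. The TATA box letters TATAAA were in neither window nor in that of TNFRSF1A (10.7% of all windows). The STAT motif letters TTCNNNGAA were found 1 time in the CASP8 window and in neither of the others (6.57% of all windows). FAS and CFLAR windows that were open in all 8 lists lay wholly or mostly within annotated exons and are not shown.

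The depth was even except in 1 line. Without H1299, 22234485 to 25303899 reads were counted on genes per library, and the H1299 libraries held 59735913 reads in Mock and 52634234 after DAC. In H1299 most genes with few reads had an even number of reads (85.5% and 81.9% of genes with 1 to 20 reads, against 39.2% to 41.5% elsewhere), so counting intervals for this line were computed on pairs of reads. Epithelial markers (EPCAM, KRT8, KRT18, KRT19 and CDH1) summed to between 111 and 3015 FPKM in the Mock libraries of the other 5 lines but to 0.986 FPKM in CL1-0, where all were near 0. In H1299 and CL1-5 the Mock sum was almost all KRT8 and KRT18. EPCAM, KRT19 and CDH1 were each at most 0.758 FPKM in these 2 Mock libraries. Lung lineage markers (NKX2-1, SFTPB and NAPSA) summed to at most 0.771 FPKM in any library, so the lung origin of the lines was not visible in them. Leukocyte markers summed to at most 1.71 FPKM and endothelial markers to at most 1.74 FPKM. Fibroblast collagen and proteoglycan markers summed to 99.9 FPKM in Mock and 146 FPKM after DAC in H1792, and to at most 3.75 FPKM elsewhere.

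The levels of these genes differed between the cell lines. The line term passed the test for 9 of 9 genes in a fit over 12 libraries with treatment as a covariate (limma F test on log2(FPKM + 0.1), Benjamini-Hochberg adjusted p under 0.05), beside 78.4% of all genes tested. Because 1 library was made per line and treatment, the error of this test is the difference in DAC response between lines, and the p-values measure only the spread between these libraries. In bulk RNA, fewer cells that express a gene and less of its RNA in each cell cannot be told apart. The plot of FPKM by line and treatment shows the 12 values of each gene.

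**Figure D1:**
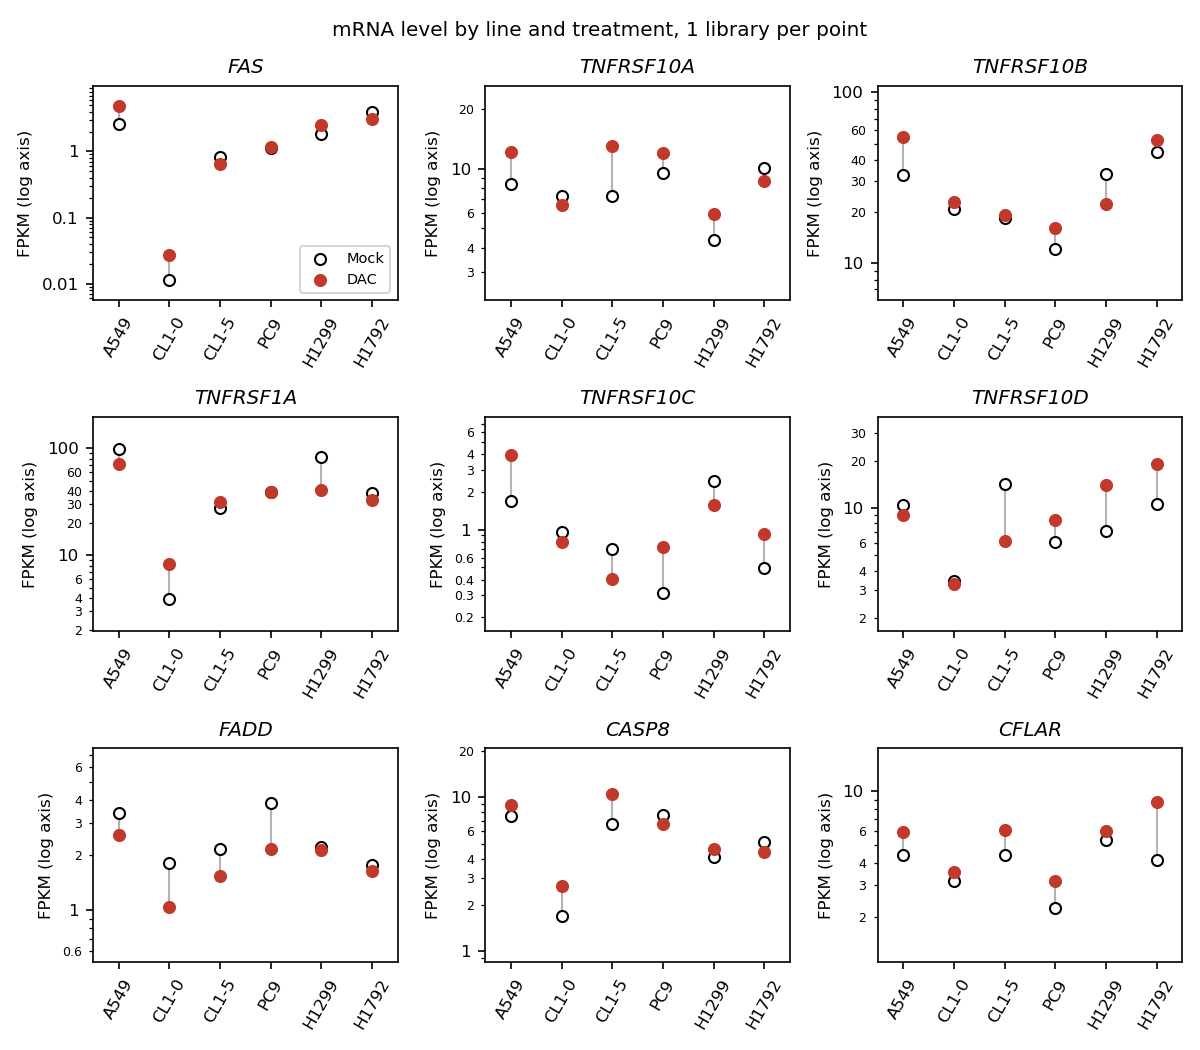
mRNA level (FPKM, log axis, scale differs between panels) of the 9 genes in 6 cell lines, with 1 library per point, open for Mock and red for DAC. FAS and TNFRSF1A are lowest in CL1-0 under both treatments, FADD is lower and CFLAR higher after DAC in each line, and the other genes move in both directions.

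Of the 9 genes, FAS had the largest spread between lines on the log2 scale used here. Its level in Mock was 3.89 FPKM in H1792, 2.61 in A549, 1.81 in H1299, 1.12 in PC9, 0.817 in CL1-5 and 0.0113 in CL1-0. After DAC it was 3.11, 4.88, 2.47, 1.18, 0.648 and 0.0270 FPKM in the same order. CL1-0 held 1 read in Mock and 3 reads after DAC, at or under the floor of 3 reads below which a gene is not called detected, while the other 10 libraries held 59 to 490 reads. The line term had an adjusted p of 3.86e-05, and 10 of the 15 pairs of lines differed, beside 35.4% of pairs over all genes. CL1-0 differed from its neighbour in this order, its related line CL1-5 (adjusted p = 0.000909, a contrast called for 17.5% of all genes), and no other neighbouring pair passed the test. The SD of log2 FPKM over the 6 Mock libraries was 1.83, the 81.9th percentile among 13363 genes with a mean of at least 1 FPKM, whose median SD was 0.70. TNFRSF1A had the next largest SD of the 9 genes, 1.65. The SD of FAS leans on CL1-0, where the log2 value at 1 read is set mostly by the constant added to FPKM. The rank and percentile of FAS therefore depend on that constant, and the SD was not computed with another one. CL1-0 is also the line in which all the epithelial markers were near 0 in Mock. EPCAM, KRT19 and CDH1 were low in H1299 and CL1-5 too, where FAS was detected. Whether the marker levels are connected with FAS was not tested.

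TNFRSF1A, the main receptor for TNF, was the most abundant receptor mRNA of the set in 4 of the 6 Mock libraries. It stood at 98.1 FPKM in A549, 83.9 in H1299, 39.1 in PC9, 38.5 in H1792, 27.6 in CL1-5 and 3.93 in CL1-0 in Mock, and at 71.2, 41.0, 39.4, 32.7, 31.6 and 8.37 FPKM after DAC. The line term had an adjusted p of 0.000663. CL1-0 was again separate from CL1-5, by 2.34 ± 0.41 on the log2 scale (SE, adjusted p = 0.00589), and the other neighbours in the order did not differ beyond their spread.

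The 4 TRAIL receptor genes form a cluster on chromosome 8. The receptors that signal were present in every library. TNFRSF10B ranged from 12.1 FPKM (PC9) to 44.6 FPKM (H1792) in Mock, with 20.8 in CL1-0, 18.3 in CL1-5, 32.5 in A549 and 33.2 in H1299. TNFRSF10A was one of the most even members, at 4.35 FPKM in H1299, 7.28 in CL1-0, 7.30 in CL1-5, 8.41 in A549, 9.49 in PC9 and 10.1 in H1792. Its SD of log2 FPKM over the Mock libraries was 0.43, the 18.6th percentile. For TNFRSF10B, 8 of the 15 pairs of lines differed (adjusted p of the line term 0.00310). For TNFRSF10A, 4 of the 15 pairs differed, beside 35.4% of pairs over all genes, and each of them set H1299 against another line. The TNFRSF10A line term (adjusted p = 0.0336) was lost without H1299 or PC9, at adjusted p of 0.343 and 0.0635.

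The decoy receptors stood at different levels. TNFRSF10D was above TNFRSF10A in FPKM in 4 of the 6 lines in Mock, and TNFRSF10C was the lower decoy in each line. TNFRSF10D was at 3.44 FPKM in CL1-0, 6.12 in PC9, 7.13 in H1299, 10.5 in A549, 10.6 in H1792 and 14.2 in CL1-5 in Mock. For it 3 of the 15 pairs of lines differed, beside 35.4% of pairs over all genes, each with CL1-0 as the lower line. The TNFRSF10D line term (adjusted p = 0.0372) was lost without CL1-0 or H1792, at adjusted p of 0.484 and 0.0568. TNFRSF10C was at 0.312 FPKM in PC9, 0.491 in H1792, 0.703 in CL1-5, 0.952 in CL1-0, 1.71 in A549 and 2.47 in H1299, from 17 to 370 reads. The TNFRSF10C values are uncertain, since 28% of the 50-base runs of its transcripts also occur in transcripts of other genes, 14.4% in a gene model that overlaps it on the same strand. For the other 8 genes this share was at most 4.77%.

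Within the signalling complex, CASP8 was the member with the clearest line difference. Its level in Mock was 7.70 FPKM in PC9, 7.51 in A549, 6.71 in CL1-5, 5.15 in H1792, 4.07 in H1299 and 1.70 in CL1-0, and CL1-0 was lower than each of the other lines (adjusted p 0.00112 to 0.0147). FADD spanned 1.75 FPKM (H1792) to 3.82 FPKM (PC9) and CFLAR 2.23 FPKM (PC9) to 5.32 FPKM (H1299). FADD differed between 2 of the 15 pairs of lines, A549 and PC9 each against CL1-0, beside 35.4% of pairs over all genes. CL1-0 had the lowest mean over its 2 libraries for FAS, TNFRSF1A, TNFRSF10D, FADD and CASP8, and the line term of FADD (adjusted p = 0.0281) was lost without A549, CL1-0 or PC9, at adjusted p of 0.0650, 0.0872 and 0.0566. The line term of CFLAR (adjusted p = 0.0121) was lost without PC9, at 0.114.

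The second question was whether DAC changed these genes. In the fit over the 10 libraries of the 5 lines other than H1792, with the line as a block, 0 of the 9 genes passed an adjusted p of 0.05 in either direction (limma on log2(FPKM + 0.1), Benjamini-Hochberg over 22603 genes). Over all genes, 27 were higher (0.119%) and 0 lower (0%). At an unadjusted p under 0.05, 2 members were higher (TNFRSF10A and CFLAR) and 1 lower (FADD), beside 8.07% and 4.40% of all genes. The median log2 difference was 0.15 over the members and 0.07 over all genes tested. A p above the threshold does not show that DAC left a gene as it was, and the intervals below give the range that these 5 lines allow.

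TNFRSF10A and TNFRSF10B are the receptors that pass on the TRAIL signal. TNFRSF10A was 12.2 FPKM after DAC against 8.41 in Mock in A549, 13.1 against 7.30 in CL1-5, 11.99 against 9.49 in PC9 and 5.90 against 4.35 in H1299. In CL1-0 it was 6.59 against 7.28 FPKM and in H1792 8.68 against 10.1 FPKM. TNFRSF10A was thus higher after DAC in 4 lines and lower in the other 2, and the Mock and DAC values overlapped. After rescaling to a common FPKM sum the log2 difference of TNFRSF10A in CL1-0 was 0.0382. The fitted difference over 5 lines was 0.40 ± 0.15 on the log2(FPKM + 0.1) scale (SE, 95% CI 0.04 to 0.75, limma adjusted p = 0.366). With H1792 added it was 0.30 (limma adjusted p = 0.497).

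TNFRSF10B was 54.3 FPKM after DAC against 32.5 in Mock in A549, 22.7 against 20.8 in CL1-0, 19.2 against 18.3 in CL1-5, 16.0 against 12.1 in PC9 and 52.4 against 44.6 in H1792. The sign of TNFRSF10B in CL1-5 turned after rescaling (-0.0492) and after quantile normalization (-0.0587). H1299 went the other way, with 22.0 FPKM after DAC and 33.2 in Mock. The ratio in A549 was 1.67 (95% interval 1.60 to 1.74, counting error only) and that in H1299 was 0.663 (0.633 to 0.694). Between these lines the sign of the difference was opposite, and the fitted difference over 5 lines was 0.15 ± 0.19 (SE, 95% CI -0.29 to 0.58, limma adjusted p = 0.744).

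FAS, the receptor of FAS ligand, was 1.87 times its Mock level after DAC in A549 (1.58 to 2.21) and 1.37 times in H1299 (1.13 to 1.66). In PC9 the ratio was 1.05 (0.783 to 1.42), in CL1-5 0.793 (0.558 to 1.12) and in H1792 0.7996 (0.682 to 0.937). In PC9 the sign of FAS turned after quantile normalization (-0.18). No ratio is given for CL1-0, where both libraries were at or under the floor. The fitted difference of FAS was 0.25 ± 0.21 (SE, 95% CI -0.24 to 0.74, limma adjusted p = 0.611), and without CL1-0 it was 0.27.

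TNFRSF1A, which binds TNF, was higher after DAC in CL1-0 and lower in H1299 and A549. In CL1-0 it was 2.13 times its Mock level (1.89 to 2.40), in H1299 0.488 times (0.471 to 0.506) and in A549 0.726 times (0.703 to 0.749). It was 1.15 in CL1-5 (1.09 to 1.21), 1.01 in PC9 (0.961 to 1.06) and 0.849 in H1792 (0.810 to 0.890). The direction of TNFRSF1A in A549 depended on the scaling, since its log2 difference was -0.46 as deposited, -0.11 after rescaling to a common FPKM sum and 0.0074 after quantile normalization. The fitted difference was -0.04 ± 0.27 (SE, 95% CI -0.69 to 0.60, limma adjusted p = 0.957), and its sign changed without A549 (0.06) or H1299 (0.20). The range over lines narrowed from 3.93 to 98.1 FPKM in Mock to 8.37 to 71.2 FPKM after DAC, which was not tested.

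The decoys differed in their responses between lines. For TNFRSF10C the log2 difference was 1.17 in A549, 1.00 in PC9, 0.79 in H1792, -0.23 in CL1-0, -0.61 in H1299 and -0.66 in CL1-5. For TNFRSF10D it was 0.98 in H1299, 0.85 in H1792, 0.44 in PC9, -0.06 in CL1-0, -0.21 in A549 and -1.19 in CL1-5. Both decoys were lower in CL1-5, while in H1299 and A549 they differed from Mock in opposite directions. In A549 this held for the deposited scale and quantile normalization, but after rescaling to a common FPKM sum TNFRSF10D was also above 0 (0.13), as it was in CL1-0 (0.12). The SD of the line differences over the 5 lines was 0.89 for TNFRSF10C and 0.81 for TNFRSF10D, close to the 0.78 of TNFRSF1A and against 0.16 for CFLAR. The fitted differences were 0.14 ± 0.33 for TNFRSF10C and -0.01 ± 0.28 for TNFRSF10D (SE, limma adjusted p 0.876 and 0.991).

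FADD and CFLAR were the members with the same sign in every line. FADD was 2.56 FPKM after DAC against 3.40 in Mock in A549, 1.05 against 1.82 in CL1-0, 1.54 against 2.14 in CL1-5, 2.16 against 3.82 in PC9, 2.13 against 2.21 in H1299 and 1.63 against 1.75 in H1792. FADD was thus lower after DAC in 6 of 6 lines, which held for 1.78% of all genes, and the ranges of Mock and DAC overlapped. In H1299 and H1792 the counting intervals of the ratio included 1 (0.737 to 1.28 and 0.667 to 1.295). FADD rested on 57 to 233 reads per library. The fitted difference over 5 lines was -0.49 ± 0.16 (SE, 95% CI -0.86 to -0.12) or a fold of 0.713, and it did not pass over all genes (limma adjusted p = 0.313).

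CFLAR, the inhibitor of CASP8, was 5.93 FPKM after DAC against 4.39 in Mock in A549, 3.53 against 3.16 in CL1-0, 6.12 against 4.41 in CL1-5, 3.15 against 2.23 in PC9, 6.003 against 5.32 in H1299 and 8.73 against 4.15 in H1792. It was higher in 6 of 6 lines, beside 4.55% of all genes, and the counting interval of the ratio lay above 1 in each line. The ratio was between 1.12 and 1.41 in 5 lines and 2.11 in H1792. The fitted difference over the 5 lines without H1792 was 0.34 ± 0.12 (SE, 95% CI 0.06 to 0.62, limma adjusted p = 0.336), and with H1792 it was 0.46 (limma adjusted p = 0.292). The signs of FADD and CFLAR were the same in 6 of 6 lines with pseudocounts of 0.01 and 1, after rescaling to a common FPKM sum and after quantile normalization. The size for FADD depended on the scaling. After rescaling its log2 difference was near 0 in A549 (-0.06, against -0.40 as deposited) and H1299 (-0.02, against -0.05). It lay further from 0 in CL1-5 (-0.58, against -0.45) and H1792 (-0.27, against -0.10).

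CASP8 was higher after DAC in A549 (ratio 1.19), CL1-0 (1.56), CL1-5 (1.56) and H1299 (1.13) and lower in PC9 (0.868) and H1792 (0.862). Its fitted difference was 0.29 ± 0.15 (SE, 95% CI -0.07 to 0.65, limma adjusted p = 0.462).

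**Figure D2:**
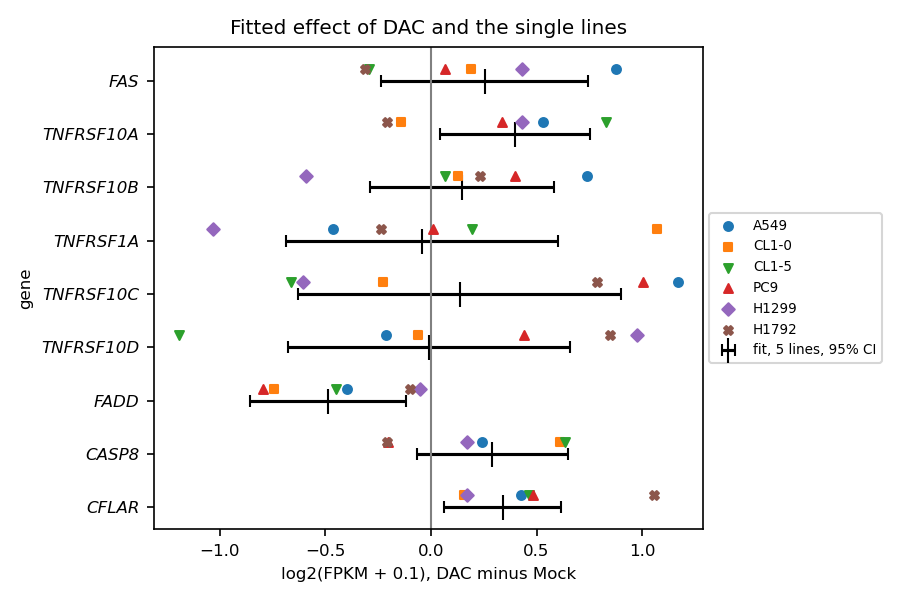
Fitted log2 difference of DAC minus Mock over 5 lines (black bar, 95% CI from limma) and the difference in each of 6 lines (coloured points, 1 library pair each) on the log2(FPKM + 0.1) scale. The interval of FADD lies below 0 and those of TNFRSF10A and CFLAR lie above 0, while the points of TNFRSF10D and TNFRSF1A spread over more than 2 log2 units.

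Counted by gene and line, 4 differences were at least 2-fold higher on this scale and 2 at least 2-fold lower. The higher ones were TNFRSF10C in A549 and in PC9, TNFRSF1A in CL1-0 and CFLAR in H1792. The lower ones were TNFRSF10D in CL1-5 and TNFRSF1A in H1299. Of the 9 members, 1 was at least 2-fold higher in each of A549, CL1-0, PC9 and H1792, where this held for 15.5%, 7.60%, 10.3% and 11.0% of all genes, and 0 were lower, beside 6.65%, 2.11%, 3.10% and 6.10%. In CL1-5 and H1299, 1 member was at least 2-fold lower, beside 5.08% and 3.12% of all genes, and 0 were higher, beside 7.23% and 8.04%. The count of higher pairs was 0 with a pseudocount of 1, and at a 1.5-fold limit 12 pairs were higher and 7 lower, beside 18.6% and 11.2% of all gene and line pairs. Which pairs passed the 2-fold limit also depended on the scaling. After rescaling to a common FPKM sum, FAS and TNFRSF10B in A549 and TNFRSF10D in H1299 also passed as higher. CFLAR in H1792 and, among the lower pairs, TNFRSF1A in H1299 then no longer passed. After quantile normalization TNFRSF10B in A549 passed as higher and TNFRSF10C in PC9 did not.

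**Figure D3:**
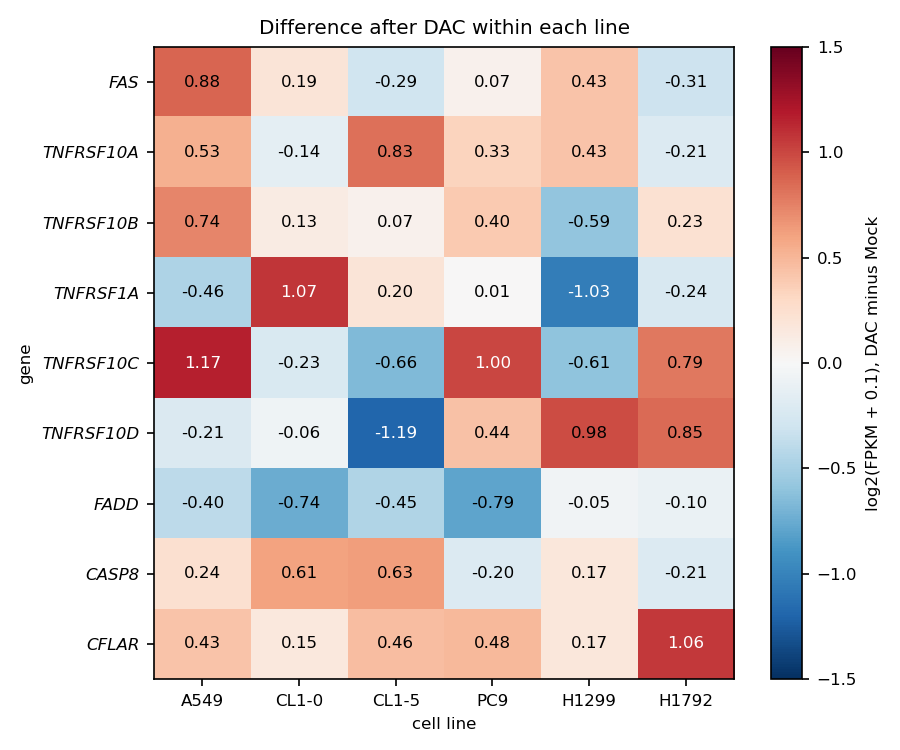
Difference of log2(FPKM + 0.1) between the DAC and the Mock library of each line (columns) for the 9 genes (rows), red for higher and blue for lower after DAC. FADD is below 0 and CFLAR above 0 in each column, and TNFRSF1A runs from 1.07 in CL1-0 to -1.03 in H1299. The value of FAS in CL1-0 comes from 1 and 3 reads.

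FPKM is per length, so the 4 TRAIL receptors could be added within a library. Their sum in Mock was 28.1 FPKM in PC9, 32.5 in CL1-0, 40.6 in CL1-5, 47.2 in H1299, 53.2 in A549 and 65.7 in H1792. After DAC it was 37.1, 33.4, 38.8, 43.6, 79.5 and 81.1 FPKM in the same order, higher in 4 lines and lower in CL1-5 and H1299. TNFRSF10B made up the largest part in each library, 43.2% to 70.4%. The decoys together made up 36.8% of the sum in CL1-5 in Mock and 16.9% after DAC, and 20.3% and 35.998% in H1299. In A549 the decoy share was 23.0% and 16.4%, in CL1-0 13.5% and 12.3%, in PC9 22.9% and 24.5%, and in H1792 16.8% and 24.7%. Over the 5 lines the share was 23.3% ± 8.47 in Mock and 21.2% ± 9.37 after DAC (SD, n = 5), and the difference of -2.11 ± 12.9 percentage points was smaller than its spread. Without CL1-5 the mean difference was 2.33 percentage points, so that its sign rested on this line.

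**Figure D4:**
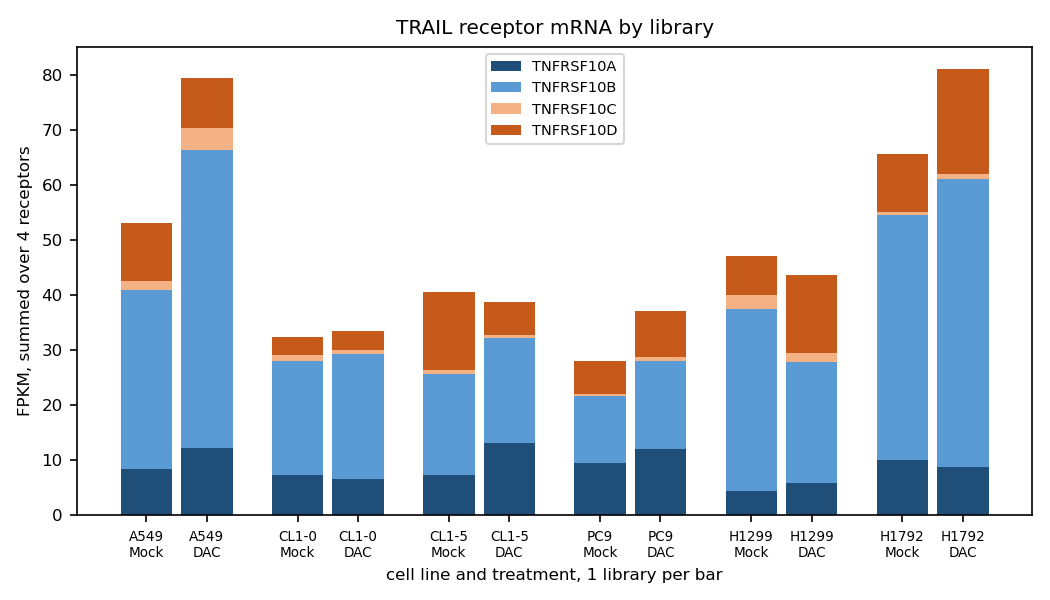
Summed FPKM of the 4 TRAIL receptors in each of 12 mRNA-seq libraries (1 bar per library, from 0), split into the signalling receptors TNFRSF10A and TNFRSF10B (blue) and the decoys TNFRSF10C and TNFRSF10D (orange). The sum was highest in H1792 and A549 after DAC (81.1 and 79.5 FPKM), and the decoy part shrank in CL1-5 and grew in H1299.

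CFLAR was set against CASP8, the enzyme it limits, as the log2 ratio of their FPKM + 0.1. The ratio was above 0 in Mock in CL1-0 (0.86) and H1299 (0.38), and below 0 in H1792 (-0.31), CL1-5 (-0.60), A549 (-0.76) and PC9 (-1.74). After DAC it differed from Mock by 1.27 in H1792, 0.68 in PC9, 0.18 in A549, -0.000326 in H1299, -0.17 in CL1-5 and -0.45 in CL1-0. Over the 5 lines without H1792 the mean difference was 0.05 ± 0.42 (SD, n = 5), which was smaller than its spread, although CFLAR itself was higher after DAC in each line. Leaving out PC9 turned the mean to -0.11.

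The rest of the pathway was given by 6 lists of 47 genes, of which 46 were in the table and 43 were tested. At an adjusted p of 0.05, 0 of them passed in either direction (limma). At an unadjusted p under 0.05, 11 were higher and 3 lower, beside 8.07% and 4.40% of all genes. The same shares belong beside the counts of each list below. Among the 11, TNF, LTA and ZBP1 passed the filter on low values only through their DAC libraries, which favours a higher result. The median log2 difference of the 43 genes was 0.16, beside 0.07 over all genes.

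The ligands were low. TNFSF10, which encodes TRAIL, was at most 1.37 FPKM in Mock and 2.03 FPKM after DAC, both in H1792, and FASLG did not pass the filter. TNFSF10 was higher after DAC in 6 of 6 lines, beside 4.55% of all genes. It went from 1 to 69 reads in CL1-5, but held only 0 and 1 reads in CL1-0 and 0.748 and 0.771 FPKM in PC9. The fitted difference of TNFSF10 was 0.88 ± 0.46 (SE, limma adjusted p = 0.456). TNF had 0 to 2 reads in 5 Mock libraries and 16 in H1299. After DAC it had 93 reads in CL1-5, 36 in H1299, 27 in H1792, 22 in PC9, 6 in A549 and 2 in CL1-0. TNF had the largest fitted difference of the ligands, 1.94 ± 0.55 (SE, limma adjusted p = 0.282), and TNFSF15, another family ligand, the smallest, 0.50 ± 0.26 (SE, limma adjusted p = 0.465). With so few Mock reads these values depend on the pseudocount. The 4 ligands tested were higher on average, 2 of them (TNF and LTA) at an unadjusted p under 0.05. Over the 5 lines TNF averaged 0.0378 FPKM in Mock and 0.688 after DAC, and LTA 0.0431 and 0.190. Both thus passed the filter of 0.1 FPKM only through their DAC libraries. Being tested at all therefore favoured a higher value for these 2 ligands, and their counts cannot be read as a result about ligands.

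Among the other death domain receptors and soluble decoys, 1 of 4 was higher and 1 lower at an unadjusted p under 0.05. NGFR, the p75 neurotrophin receptor, had the highest difference (0.97 ± 0.37, limma adjusted p = 0.360) and TNFRSF25 (death receptor 3) the lowest (-0.55 ± 0.22, limma adjusted p = 0.376). Of the 12 receptor complex adaptors and ubiquitin enzymes, 3 were higher and 0 lower at that level. BIRC3 (cIAP2), a ubiquitin ligase of the TNF receptor complex and an NF-kB target, was highest with 0.97 ± 0.29 (SE, limma adjusted p = 0.292). BIRC3 went from 3.43 to 16.1 FPKM in H1299, from 14.4 to 28.6 in H1792 and from 3.998 to 8.09 in A549, and was 0.0563 and 0.0584 FPKM in CL1-0. SHARPIN, a subunit of the linear ubiquitin ligase, was lowest (-0.30 ± 0.16, limma adjusted p = 0.467).

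Of the 8 other regulators of the CASP8 complex, 1 was higher and 0 lower at an unadjusted p under 0.05. CASP10, the close relative of CASP8, had the highest difference (0.78 ± 0.27, limma adjusted p = 0.332) and FAF1, a FAS-associated factor, the lowest (-0.23 ± 0.12, limma adjusted p = 0.464). Of the 13 downstream caspases and genes of the mitochondrial arm, 3 were higher and 2 lower. BCL2L1, which encodes the survival protein BCL-XL, had the lowest difference (-0.44 ± 0.16, limma adjusted p = 0.350). Of the 2 necroptosis genes tested, ZBP1, a sensor of nucleic acids, had a difference of 1.11 ± 0.44 (limma adjusted p = 0.374) and MLKL, the pore protein, -0.06 ± 0.19 (limma adjusted p = 0.914). ZBP1 averaged 0.0660 FPKM in Mock and 0.492 after DAC over the 5 lines, so it passed the filter only through its DAC libraries.

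The p53 and interferon lists were set beside the members because the receptors are known to respond to p53 and to interferon. Of 12 p53 target genes, 1 was higher at an unadjusted p under 0.05 and 0 lower, beside 8.07% and 4.40% of all genes. Their median log2 difference was 0.33. CDKN1A, the p21 cell cycle inhibitor, was highest (0.71 ± 0.16, limma adjusted p = 0.204) and BBC3, which encodes PUMA, lowest (-0.31 ± 0.31, limma adjusted p = 0.678). Of 12 interferon response genes, 8 were higher and 0 lower, with a median of 1.49. IFI27 was highest (3.51 ± 0.69, limma adjusted p = 0.175). The median of the interferon genes was 3.03 in CL1-5, 2.79 in A549, 1.27 in H1299, 0.47 in PC9, 0.46 in H1792 and -0.12 in CL1-0. In the same order, that of the p53 targets was -0.03, 0.76, -0.06, 0.31, 0.27 and 0.02. The median of the 9 members, whose roles differ, was 0.07, 0.43, 0.17, 0.33, -0.10 and 0.13. Whether the members follow either list was not tested.

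The genes whose log2(FPKM + 0.1) ran most like each member over the 12 libraries were sought among 13363 genes with a mean of at least 1 FPKM. Pearson's r is a description here, since the 12 points are 2 libraries of each of 6 lines and follow the lines. For FAS they were CPEB2 (0.976) and ARNTL (0.972). For TNFRSF1A they were DCBLD2 (0.965) and QPCT (0.938). For TNFRSF10B they were SEL1L (0.967) and SYNM (0.942), and for TNFRSF10A SNORA5C (0.923) and EXOC8 (0.908). The decoy TNFRSF10C ran most like CLDN15 (0.924) and UBAP1 (0.891), and TNFRSF10D like SLC25A16 (0.903) and LOXL2 (0.866). CASP8 ran with LINC00511 (0.938) and CANX (0.924), FADD with FNTB (0.902) and MRPS16 (0.876), and CFLAR with SLC12A4 (0.900) and FAM210B (0.896).

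Open chromatin at these genes was read from 8 lists of broad ATAC-seq peaks, called per library. In the lists labelled CL1-5 the peak names carry PC9, and in those labelled PC9 they carry the name of CL1-5. By mRNA, 138 genes were expressed in PC9 (at least 5 FPKM) and not in CL1-5 (under 0.1 FPKM), and 95.7% of them had an open promoter in the Mock list labelled CL1-5 against 53.6% in that labelled PC9. Of 79 genes with the reverse pattern, 63.3% and 88.6% had one. The lists are therefore called by their labels and were not set against the mRNA of these lines.

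A promoter peak, within 3000 bases of a transcription start and listed for the gene, was present for the members in 35 of 36 gene and line pairs in Mock and in 36 of 36 after DAC. Over all 19052 genes ranked, 77.0% of gene and list pairs had one in Mock and 80.7% after DAC. Of the 9 members, 8 had a promoter peak in all 8 lists, as did 57.5% of the 19052 genes. The exception was TNFRSF10C, which had none in H1299 in Mock. After DAC H1299 had a weak TNFRSF10C peak, of 2.87-fold enrichment, 2823 bases from the start, and 8.51% of the 19052 genes gained a promoter peak in this line. The higher count after DAC depended on the peak limits. With equal numbers of peaks in Mock and DAC, TNFRSF10C had a promoter peak in 3 Mock and 2 DAC lists. With a q-value under 0.01 or a window of 1000 bases it had one in 2 and 2. Counting any peak near a reference start gave 3 and 4.

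Promoter peaks lay over the start to which the lists assign them in all 8 lists for FAS, TNFRSF10A, TNFRSF10D, FADD, CASP8 and CFLAR. They did so in 6 for TNFRSF10B and TNFRSF1A, and in 3 for TNFRSF10C. In the remaining lists of TNFRSF10B a peak still covered some reference transcript starts. These were 1 of 7 in the Mock list labelled PC9 and 3 of 7 in H1299 after DAC. The FAS peak reached over chr10:90750094-90751197 in A549 under both treatments, with an enrichment of 5.67-fold in Mock and 6.09-fold after DAC. The strongest promoter peak of TNFRSF1A lay inside the gene (chr12:6444918-6446339 in A549 in Mock, 6.79-fold) and not over the CpG-poor window printed above. That window was in a further, weaker TNFRSF1A peak in 6 lists, the exceptions being both lists labelled PC9. FADD peaks covered the printed CpG-rich stretch, as chr11:70049115-70050327 in A549 in Mock (6.47-fold) and chr11:70049089-70049671 after DAC (6.33-fold), except that in H1299 after DAC the peak began within it (chr11:70049196-70050529).

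Genes were ranked in each list by the enrichment of their strongest promoter peak. Each DAC list was longer than its Mock list, with 78199 against 58734 peaks in A549, 63541 against 45354 in H1299, 91061 against 71204 in the lists labelled PC9 and 97584 against 85710 in those labelled CL1-5. The part of list length in the percentiles was not tested, and they are given as values of each list. FAS stood highest, with a median percentile of 61.6 over the 8 lists (52.2 to 74.5), and TNFRSF10C lowest, with 29.8 (14.2 to 63.9). For FADD the percentile in Mock and after DAC was 42.9 and 63.8 in the lists labelled PC9, 62.3 and 64.6 in A549 and 51.4 and 48.5 in H1299, and it was 41.3 in both lists labelled CL1-5. For CFLAR the percentile was lower after DAC in A549 (43.0 to 38.3) and in the lists labelled PC9 (52.6 to 42.2), and higher in the other 2. No member moved the same way in 4 of 4 lines, which 5.74% of the 19052 genes did upwards and 14.9% downwards. Mean shifts ranged from -4.51 ± 6.05 percentile points for TNFRSF1A to 9.10 ± 14.8 for TNFRSF10C (SD, n = 4), none larger than its spread.

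**Figure D5:**
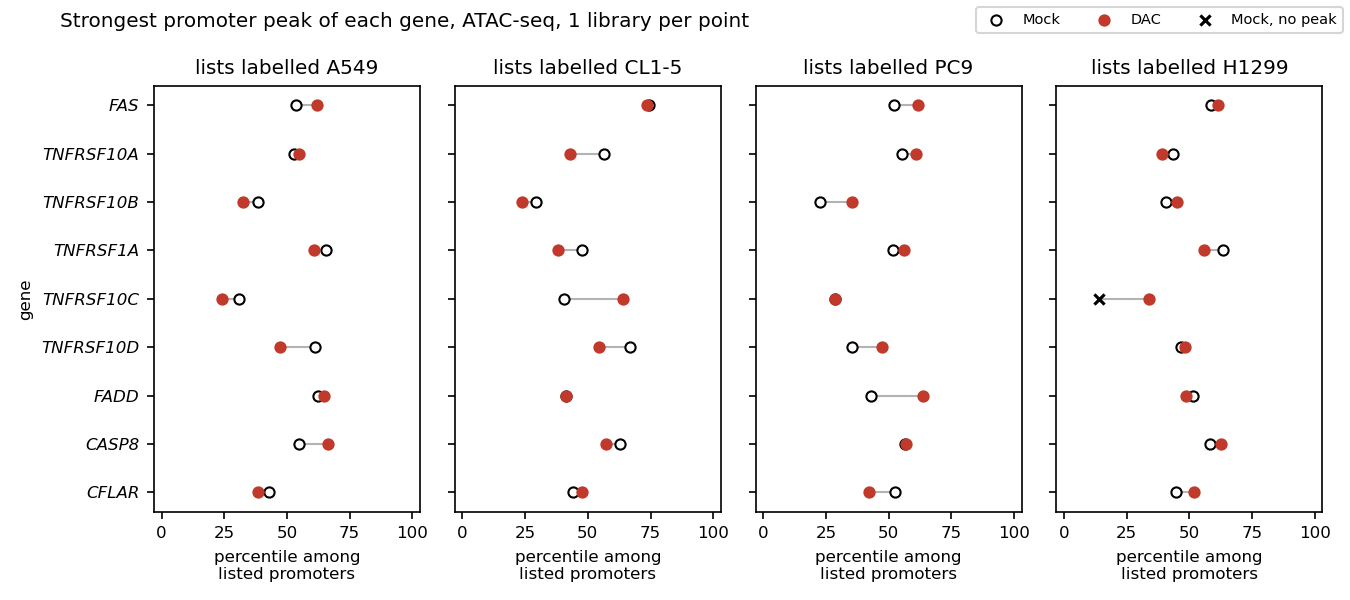
Percentile of the strongest promoter peak of each gene among 19052 genes in the Mock (open) and DAC (red) ATAC-seq list of 4 labelled lines, with 1 library per point. FAS lies at 52.2 to 74.5 in each list, most pairs lie close together, and the cross marks TNFRSF10C in H1299 in Mock, which had no promoter peak and shares the lowest rank.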

How the data were processed

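The authors trimmed mRNA-seq reads with Trimmomatic, mapped them with RSEM and bowtie2 on hg19, counted reads by gene on a GENCODE annotation of GRCh37 and deposited FPKM from DESeq2 1.24.0, beside a mean normalized signal per gene and the results of their own tests, which were not used. The submitters' processing notes also name TopHat2 2.1.1. From FPKM and the deposited signal, whole reads were recovered for 100% of values, within 0.01 read. For Omni-ATAC-seq, the authors aligned reads with BWA 0.7.17-r1188, called broad peaks per library with MACS2 2.2.5 and annotated them with ChIPseeker 1.20.0. The deposited lists give each peak's fold enrichment, a ratio, with its p- and q-value as −log10, and their depth is unknown.

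Here log2(FPKM + 0.1) of genes with a mean of at least 0.1 FPKM was fitted with limma 3.58.1 in R 4.3.3 (trended empirical Bayes, Benjamini-Hochberg, threshold 0.05). The fit of DAC used 10 libraries with the cell line as a block, since Mock and DAC come from the same line (their deviations correlated at 0.700 to 0.903 within a line and at most 0.164 across lines). The fit of the line used 12 libraries. Tested on simulated data for the DAC effect with 200 of 22603 genes changed, the fit called 94, all in the right direction, and 4 unchanged genes. It found 25% of 2-fold and 69% of 4-fold changes. Ratios of reads within a line carry exact 95% binomial intervals, which cover counting error only, and no test was made there. A gene at 3 reads or fewer was treated as undetected.

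Named genes were the 9 members, the highest and lowest gene of each list, genes past the adjusted threshold, and the 2 genes most correlated with each member. Some genes that this rule names are not reported here. TNFSF10, FASLG, LTA and the marker genes were named in addition, after their values were seen. Members, lists and tests were chosen with earlier results of these data known. TNFRSF6B and PECAM1 were not analysed here. Promoter sequences are RefSeq's GRCh38.p14, found once each in GRCh37. Intervals, peaks and figures were computed in Python 3.11.15 with scipy 1.17.1 and matplotlib 3.10.9. The alternatives tried were other lines, pseudocounts, filters, scalings, no block, limma's voom on recovered reads, and other peak limits.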

Additional observations from a re-analysis of the deposited data

Results flagged for a closer look

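The log2 difference of CFLAR between DAC and Mock was 1.057 in H1792, against 0.155 to 0.4809 in the other 5 lines. Its gap to the nearest line, over the range of the 6 lines, was 0.6387 and past the 95% limit of Dixon's test for 6 values. It was the 1 value past that limit among 33 groups of 6 values checked, where chance alone would pass about 1 group in 20. The read numbers behind it were 2317 in Mock and 4722 after DAC. H1792 was also the line with the highest fibroblast marker sum (99.9 FPKM in Mock and 146 FPKM after DAC), whose part in the CFLAR value was not tested.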

How the results depend on the processing

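No member passed the adjusted threshold for DAC under any of the 16 alternatives, where the lowest adjusted p of a member ranged from 0.250 to 1.00. The number of genes called higher depended on the setting: 27 as reported, 53 with H1792 added, 10 without the replicate block (the cell line left out), 0 with a pseudocount of 1, 2 without a filter, 41 after rescaling to a common FPKM sum, 17 after quantile normalization, 6 without the trend, 178 with voom, 2 with CL1-0 and CL1-5 averaged, and 0 to 22 with a line left out. Genes called lower were 0, and 1 with voom or without H1299. Rescaling moved the median of all genes from 0.07 to 0.19. Fits without the block changed no member's call.

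FAS, TNFRSF10A, FADD, CASP8 and CFLAR kept their sign under all 16. TNFRSF1A was 0.082 after rescaling and 0.0494 after quantile normalization, and ran from -0.32 (without CL1-0) through 0.06 (without A549) to 0.20 (without H1299). TNFRSF10C was -0.0247 after quantile normalization, -0.12 without A549, -0.08 without PC9 and up to 0.33 without CL1-5, and TNFRSF10B ran from -0.000379 without A549 to 0.33 without H1299. TNFRSF10D was 0.13 with H1792, 0.11 after rescaling, 0.0229 with voom, 0.14 with CL1-0 and CL1-5 averaged, and ran from -0.26 (without H1299) through 0.04 (without A549) and 0.0029 (without CL1-0) to 0.29 (without CL1-5). The causes were not tested.

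The line term was called for 11103 genes at a mean of at least 1 FPKM, since fewer genes were tested. It was lost for TNFRSF10A and FADD after rescaling (adjusted p 0.104 and 0.0770), for FADD with voom (0.0839) and for TNFRSF10D with a pseudocount of 1 (0.0520). Pairs at least 2-fold higher were 0 with a pseudocount of 1 and those lower 1 after rescaling, and a 1.5-fold limit gave 12 and 7. The mean difference in decoy share ran from -6.55 to 2.33 percentage points with a line left out, and that of CFLAR against CASP8 from -0.11 to 0.17. With H1792 added they were -0.45 percentage points and 0.25. Promoter peaks were found for 33 to 35 pairs in Mock and 33 to 36 after DAC under the other peak limits. With 1 library per line and treatment, small changes could not be detected, and exact tests over 4 lines cannot pass the threshold.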
